A study of Mus musculus with 2 samples.

Results

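Nlrp1a, Nlrp1b, Naip1, Naip2, Naip5, Naip6 and Nlrc4, the sensor and adaptor genes of the NLRP1 and NAIP-NLRC4 inflammasomes, were described by the chromosome contacts of each parental allele in mouse embryonic stem cells. The genes were placed by their RefSeq spans on GRCm38, and every 50 kb window of the contact table that overlaps a span was taken. This gave 13 of the 43941 windows, 4 on chromosome 11 for Nlrp1a and Nlrp1b, 7 on chromosome 13 for the Naip genes and 2 on chromosome 17 for Nlrc4. The windows within 500 kb either side served as context. The set was selected on the unequal allelic contact counts of Nlrp1b in these same data, so all allelic values of these windows are given as a description and carry no test.

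The study used F121-6, a female hybrid ES cell line with a 129 and a Mus castaneus (Cas) set of chromosomes, grown on mitomycin-C-inactivated embryonic fibroblasts (MEFs) as feeders with serum and LIF. Promoter Capture Hi-C joins DNA ends that lie close together in fixed nuclei and then enriches with RNA baits the products that hold a promoter, here on HindIII fragments of 22225 promoters. Both samples, replicates 1 and 2, form 1 group without a treatment, and each allele has a single pooled value per window in the table. Variation between the replicates is therefore unknown. The comparison is between the 129 and the Cas allele within the same cells of 1 line, and the cross is the only genotype measured.

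Inflammasomes are protein platforms that activate caspase-1, which matures interleukin-1 beta and interleukin-18 and cuts gasdermin D to open pores in the cell membrane. NLRP1B is activated when a pathogen protease such as anthrax lethal factor cuts it. NLRP1A is its close paralogue, and an activating mutation of it causes systemic inflammation in mice. The NAIP proteins bind bacterial proteins in the cytosol, namely flagellin (NAIP5 and NAIP6), the inner rod of type III secretion systems (NAIP2) and the needle (NAIP1), and then recruit NLRC4, the shared adaptor that activates caspase-1. These genes act mainly in myeloid cells and, for NAIP and NLRC4, in the gut epithelium. The data here hold contacts and no RNA, so expression was not measured.

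The sequences at the annotated starts are shown first, because the baits target promoters and because tandem copies of a gene can resemble each other. RefSeq (GRCm38.p6) holds 8 such sequences of 300 bases for the 7 genes, 250 before and 50 after each start, and all 8 lie on the minus strand. Nlrp1b has 2 annotated starts, both in the same 50 kb window. The sequence of Nlrp1a (chr11:71144655-71144954, minus strand) and that of the outermost start of Nlrp1b (chr11:71230684-71230983, minus strand) were 81.2% identical in a global alignment, with 255 matching bases. Capitals mark their longest shared run of 37 bases. The sequence of the other Nlrp1b start, not shown, was 52.1% identical to that of Nlrp1a, with a longest shared run of 10 bases.
Nlrp1a: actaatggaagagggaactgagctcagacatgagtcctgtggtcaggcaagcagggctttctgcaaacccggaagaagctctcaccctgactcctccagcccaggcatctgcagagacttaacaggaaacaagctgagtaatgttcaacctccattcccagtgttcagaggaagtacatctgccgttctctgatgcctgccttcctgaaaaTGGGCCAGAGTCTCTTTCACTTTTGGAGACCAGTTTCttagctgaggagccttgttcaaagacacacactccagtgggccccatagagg
Nlrp1b: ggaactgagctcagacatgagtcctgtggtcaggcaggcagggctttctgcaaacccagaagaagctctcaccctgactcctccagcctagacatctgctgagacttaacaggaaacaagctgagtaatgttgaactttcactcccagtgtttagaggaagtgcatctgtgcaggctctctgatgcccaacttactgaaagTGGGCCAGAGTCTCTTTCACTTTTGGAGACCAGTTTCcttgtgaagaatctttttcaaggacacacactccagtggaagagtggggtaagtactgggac

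Among the Naip genes, the sequences of Naip2 (chr13:100202073-100202372, minus strand) and Naip5 (chr13:100247287-100247586, minus strand) were the most alike, with 63.7% identity. Capitals mark their longest shared run of 34 bases. The 19 pairs of sequences from different families (Nlrp1, Naip, Nlrc4) had identities between 45.1 and 52.6% and no shared run over 10 bases.
Naip2: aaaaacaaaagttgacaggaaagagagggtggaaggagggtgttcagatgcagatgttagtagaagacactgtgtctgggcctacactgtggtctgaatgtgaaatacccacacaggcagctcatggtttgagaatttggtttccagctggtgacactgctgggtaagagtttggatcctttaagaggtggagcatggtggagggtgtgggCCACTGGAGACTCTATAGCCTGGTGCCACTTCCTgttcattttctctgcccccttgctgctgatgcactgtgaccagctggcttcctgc
Naip5: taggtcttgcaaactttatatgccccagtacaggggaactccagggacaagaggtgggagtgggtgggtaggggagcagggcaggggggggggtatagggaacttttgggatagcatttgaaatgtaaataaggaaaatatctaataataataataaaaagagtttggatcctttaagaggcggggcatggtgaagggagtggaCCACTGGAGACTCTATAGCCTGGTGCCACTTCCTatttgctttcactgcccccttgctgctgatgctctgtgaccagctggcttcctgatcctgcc

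The Naip6 sequence (chr13:100316567-100316866, minus strand) is shown because it was the only 1 of the 8 with the HindIII site AAGCTT, in capitals, which is the site at which the chromatin was cut. It holds 2 copies. The site reads the same on both strands and was found in 7.45% of the 32851 RefSeq sequences of this length.
Naip6: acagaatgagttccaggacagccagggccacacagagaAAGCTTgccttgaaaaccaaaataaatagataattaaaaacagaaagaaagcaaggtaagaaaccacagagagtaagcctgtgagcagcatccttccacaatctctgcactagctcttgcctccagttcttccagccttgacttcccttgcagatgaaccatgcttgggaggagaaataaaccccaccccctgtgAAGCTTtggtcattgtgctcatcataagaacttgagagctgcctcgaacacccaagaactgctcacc

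On either strand, TATAAA was present in 2 of the 8 sequences (Naip1 and Naip5) and in 13.6% of all. A loose form of the NF-kappa-B motif (GGG, any 5 bases, CC) was present in 1 of the 8 (Naip5) and in 50.8% of all. The 8 sequences held 0 to 6 CpG dinucleotides, against a median of 7 over all. Nlrp1b had none at either start, Naip2 had none, and Naip1 had 6. The placement of reads that match more than 1 copy is not described by the labels or the file, so the split of counts between neighbouring Nlrp1 or Naip copies is uncertain.

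Over the whole table, 50842396 interactions were on 129 and 37470557 on Cas. Windows with 10 or more interactions had a median log2 ratio (129 over Cas, 1 added to each count) of 0.45, and every ratio below is centred on that median. Quartiles of the centred ratio over the 43762 windows with 10 or more interactions were -0.19 and 0.22. The 129 share on chromosomes 11, 13 and 17 was 57.6, 58.5 and 58.4%, against 57.6% over all. All intervals are exact Clopper-Pearson 95% intervals. They cover counting error only, and capture reads are not independent molecules.

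The Nlrp1 paralogues had centred ratios of opposite sign, with both windows of Nlrp1a inside the quartiles over all windows. Nlrp1a (chromosome 11, 71091197 to 71144969) had 1965 interactions on 129 against 1293 on Cas, so that 129 held 60.3% (58.6 to 62.0%) of them, with a centred log2 ratio of 0.15. Nlrp1b (71152574 to 71242514) had 1115 on 129 against 2446 on Cas, so that 129 held 31.3% (29.8 to 32.9%) of them, with a centred ratio of -1.59, which is 3.00-fold more on Cas. Nlrp1a ends less than 1 window before Nlrp1b begins.

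Window by window, the 3′ end of Nlrp1a (71050001 to 71100000) had 708 interactions on 129 against 502 on Cas, with a centred ratio of 0.04. The window of its annotated start (71100001 to 71150000) had 1257 and 791, with a ratio of 0.21. Both windows of Nlrp1a thus had more counts on 129, as most windows of the table had. The next window holds the 3′ end of Nlrp1b (71150001 to 71200000), with 424 interactions on 129 against 650 on Cas and a ratio of -1.07. The window of both Nlrp1b starts (71200001 to 71250000) had 691 on 129 and 1796 on Cas, with a ratio of -1.83 (-1.96 to -1.70). These values chose the gene set. Of the 21556 windows with 1000 or more interactions, 11 had a lower ratio than the start window of Nlrp1b.

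The shift went on beyond the annotated span, on the side of the gene's starts. The next window (71250001 to 71300000) holds most of Nlrp1c-ps, a pseudogene of the family (71242430 to 71285232), and no protein-coding gene. It had 1373 interactions on 129 against 2604 on Cas, with a ratio of -1.38. The window after it (71300001 to 71350000) had 442 and 545, with a ratio of -0.75, and the window from 71350001 had 1023 and 630, with a ratio of 0.25. On the other side the ratio changed sign from the start window of Nlrp1a (0.21) to the adjoining 3′ end window of Nlrp1b (-1.07).

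The 3 adjoining windows from 71150001 to 71300000 together had 2488 interactions on 129 against 5050 on Cas, so that 129 held 33.0% (31.9 to 34.1%) of them. All 3 were past 2-fold towards Cas, which is how the run was drawn, and the Nlrp1b windows among them chose the gene set. Of all windows with 10 or more interactions, 0.925% were past it, and nothing is read from the 3 against that share. Over the whole table, 364 runs of adjoining windows were past 2-fold towards Cas, 332 of them a single window, and 8 reached 3 or more windows. By summed count, the run at Nlrp1b was exceeded by 1 of the other 7. In the opposite direction there were 951 runs, 9 of them of 3 or more windows. These runs were counted after the values were seen.

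**Figure D1:**
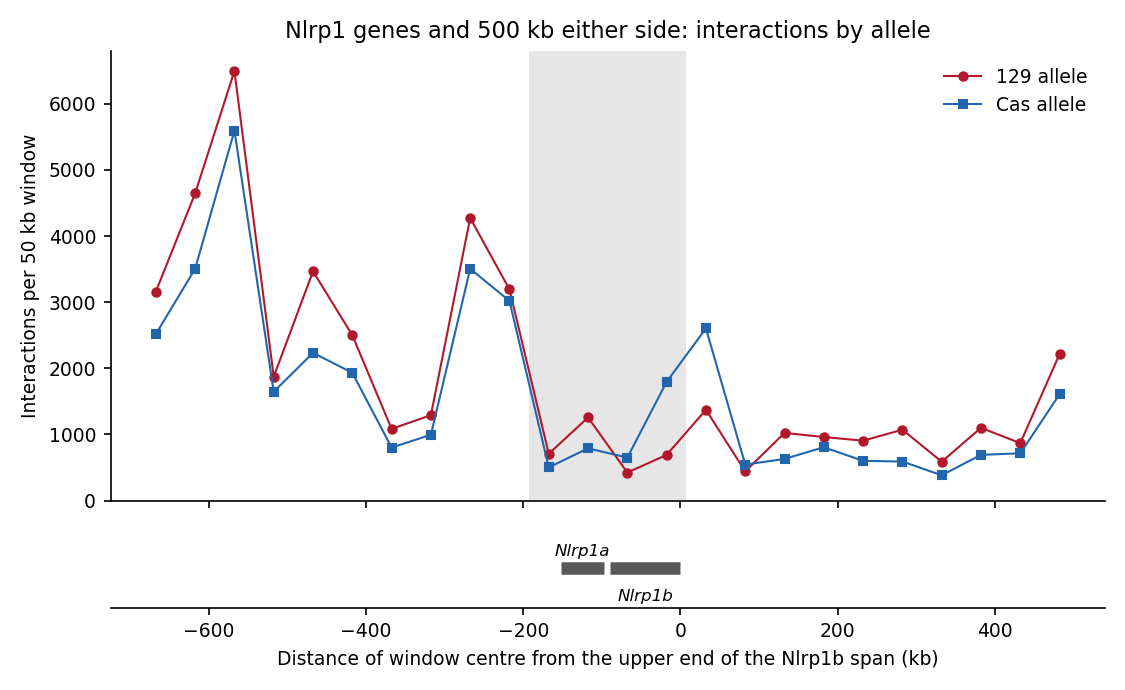
Interactions per 50 kb window on the 129 allele (circles) and the Cas allele (squares) at the Nlrp1 genes and 500 kb either side, with grey bands for the 4 windows of Nlrp1a and Nlrp1b and bars for the gene spans below. Points are pooled counts without replicates. The Cas points lie above the 129 points in the windows with 650, 1796, 2604 and 545 Cas interactions.

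Each allele was then set against the gene-free stretch that follows. Nlrp1b and the next protein-coding gene, Wscd1, are 507.4 kb apart, and 9 windows there hold no protein-coding gene. Over all 9, the counts ran from 442 to 1373 on 129 and from 383 to 2604 on Cas, and the start window of Nlrp1b, with 691 on 129 and 1796 on Cas, lay inside both ranges. The 2 windows nearest to the gene are those of the shift described above (71250001 to 71350000). The other 7, a choice made after the values were seen, had 588 to 1101 interactions on 129 (median 962) and 383 to 807 on Cas (median 630). Against these 7, the start window lay inside the range on 129 and above it on Cas. Over the whole table, windows with a protein-coding gene had a median of 1029 interactions on 129 and 756 on Cas. Windows without had medians of 324 and 227, so gene-free windows are not a like baseline for a start window. The 3′ end window had 424 interactions on 129, below all 9, and 650 on Cas, inside the range of the 9 and of the 7.

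Relative to other windows with a protein-coding gene, the start window of Nlrp1b ranked above 37.6% of them by its 129 count and above 75.2% by its Cas count. The start window of Nlrp1a ranked above 55.3% on 129 and 51.3% on Cas. The number of baited fragments per window was not analysed here.

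On the proximal side of the Nlrp1 genes, the 10 flanking windows had centred ratios from -0.37 to 0.18, and 9 of the 10 were below 0. The nearest named protein-coding gene there, Mis12, which encodes a kinetochore subunit, had 3193 interactions on 129 against 3019 on Cas in its window (ratio -0.37). Wscd1 on the other side had 3980 and 2781 (ratio 0.06). The 22 protein-coding genes within 500 kb all lie on the proximal side, and several share a window. Wscd1 is not among them. None of the 22 was past 2-fold, where 2.06% of all 18479 protein-coding loci were, and their ratios ran from -0.37 to 0.18.

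Summed over the windows of the Naip genes, the allelic counts were close to the genome-wide ratio, while single windows had centred ratios from -0.42 to 1.73. The contacts themselves were very unevenly spread. The 7 windows together had 12061 interactions on 129 against 8911 on Cas, so that 129 held 57.5% (56.8 to 58.2%) of them, with a centred ratio of -0.02. The total per window ran from 59 to 8491 interactions.

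Naip1 (chromosome 13, 100407770 to 100452864), the sensor of the secretion needle, had 6894 interactions on 129 against 5111 on Cas (ratio -0.02, interval -0.07 to 0.03). Its 3′ end window (100400001 to 100450000) had 4892 and 3599. This was the highest count among the 13 windows and ranked above 95.7% of gene windows on 129 and 95.3% on Cas. The window of its annotated start (100450001 to 100500000), which also holds the TFIIH subunit gene Gtf2h2 and part of the tight junction gene Ocln, had 2002 and 1512. In neither window of Naip1 did the interval of the centred ratio exclude 0.

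Naip2 (100144063 to 100202122), the sensor of the inner rod, covers 3 windows with different ratios. The window of its 3′ end (100100001 to 100150000) also holds Smn1, which encodes a protein of snRNP assembly, Serf1 and part of Bdp1, and had 3232 interactions on 129 against 2132 on Cas (ratio 0.15). The middle window (100150001 to 100200000) holds no other protein-coding gene and had 287 and 280 (ratio -0.42, interval -0.66 to -0.18). The window of its annotated start (100200001 to 100250000) had 1529 and 1337 (ratio -0.26). Summed over the 3 windows, the ratio was -0.02, since the first window holds most of the counts.

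Naip5 (100211735 to 100250930) and Naip6 (100281121 to 100316616) are the flagellin sensors. The annotated start of Naip5 shares its window with that of Naip2, so the 1529 interactions on 129 and 1337 on Cas belong to both genes and cannot be divided. Only 930 bases of Naip5 reach the next window (100250001 to 100300000), which also holds the 3′ end of Naip6. That window had 49 interactions on 129 against 10 on Cas, so that 129 held 83.1% (71.0 to 91.6%) of them, with a ratio of 1.73 (0.84 to 2.99). The window of the annotated start of Naip6 (100300001 to 100350000) had 70 and 41, a ratio of 0.30 (-0.26 to 0.91).

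Both windows of Naip6 had few contacts on both alleles. By summed count, 59 and 111, they ranked above 0.992% and 1.48% of windows with a protein-coding gene, and 343 of 25407 such windows had fewer than 100 interactions. The size of the first ratio is therefore poorly known. The next window (100350001 to 100400000) holds most of the pseudogene Naip3 (100340005 to 100389242), whose other end lies in the start window of Naip6, and had 294 and 249. Within the cluster, both alleles had their lowest counts at Naip6 and their highest at the 3′ end of Naip1.

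**Figure D2:**
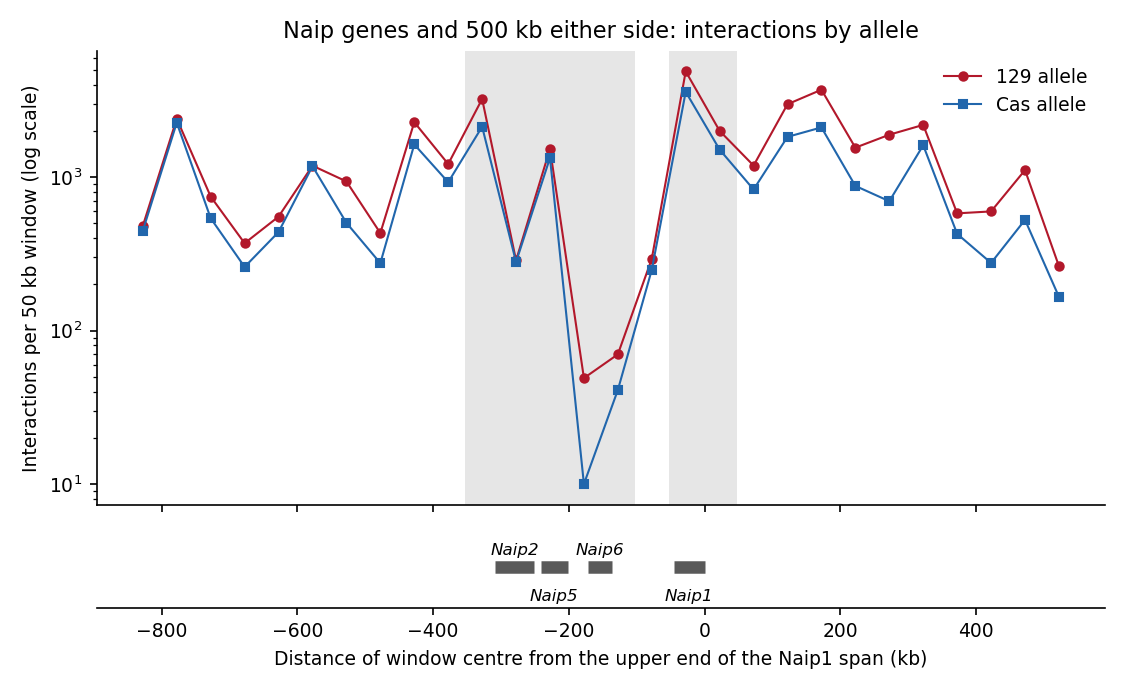
Interactions per 50 kb window, on a log scale, on the 129 allele (circles) and the Cas allele (squares) at the Naip genes and 500 kb either side, with grey bands for the 7 windows of the 4 genes and bars for their spans. Points are pooled counts without replicates. Both alleles dip together at Naip6, to 49 and 70 interactions on 129 and 10 and 41 on Cas.

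The flanks of the Naip genes were described side by side, without a test. The 10 windows before Naip2 had a median ratio of -0.02 (range -0.44 to 0.44). The 10 windows after Naip1 had a median of 0.31 (range -0.01 to 0.99), with 16086 interactions on 129 against 9356 on Cas and a summed share of 63.2% (62.6 to 63.8%). Some of the 17 protein-coding genes around the cluster share windows with the Naip genes or with each other. None of the 17 was past 2-fold, where 2.06% of all 18479 protein-coding loci were. The nearest to that mark, named after its value was seen, was Mrps36, with 1891 interactions on 129 against 697 on Cas (ratio 0.99).

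Nlrc4 (chromosome 17, 74426255 to 74459144), the adaptor of all NAIP proteins, had 1778 interactions on 129 against 1780 on Cas. Its 129 share was 50.0% (48.3 to 51.6%) and its centred ratio -0.45 (-0.55 to -0.36). The window of its 3′ end (74400001 to 74450000), shared with the zinc transporter gene Slc30a6, had 473 and 381 (ratio -0.14). The window of its annotated start (74450001 to 74500000), shared with Yipf4, had 1305 and 1399 (ratio -0.55). Neither was past 2-fold.

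The neighbourhood of Nlrc4 had a ratio of the same sign. Of the 17 flanking windows in the table, 16 were below 0, with a median of -0.28 and a range from -0.80 to 0.85, and 3 of the 22 windows of this region are not in the table analysed here. The median was -0.47 with flanks of 250 kb and -0.11 with flanks of 1 Mb. The 1 window above 0 holds Srd5a2, named after its value was seen, with 1118 interactions on 129 against 451 on Cas. Slc30a6 had a ratio of -0.45 and Yipf4 of -0.35, and both share windows with Nlrc4. The median over all windows of chromosome 17 was 0.07.

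**Figure D3:**
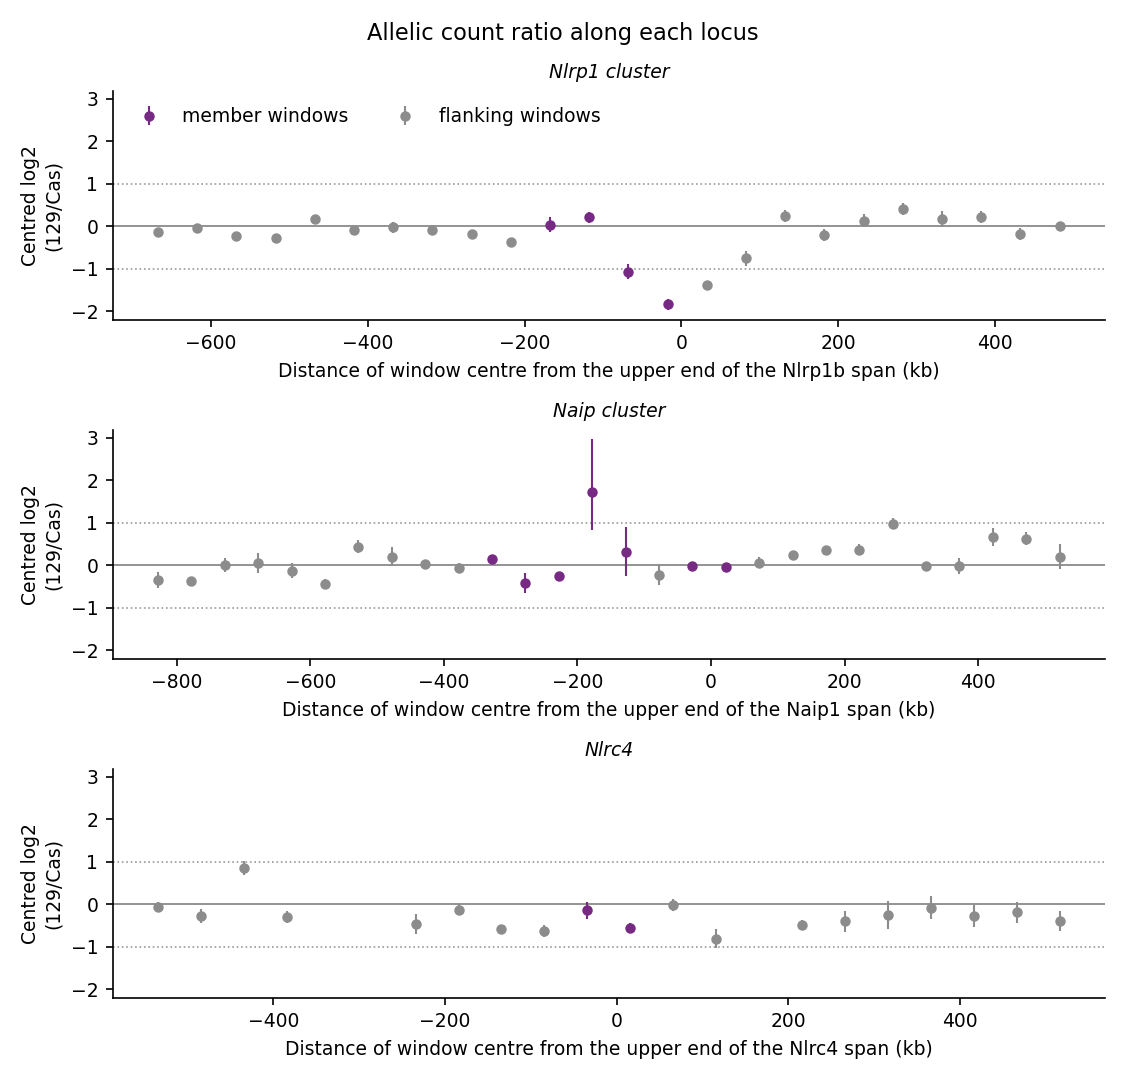
Centred log2 ratio of 129 to Cas interactions per 50 kb window along the Nlrp1, Naip and Nlrc4 loci, with member windows in purple and flanking windows in grey. Bars are exact 95% counting intervals and dotted lines mark 2-fold. The shift at Nlrp1b reaches -1.83, the windows at its edges have 0.21 and 0.25, the single high Naip window has a wide bar from 0.84 to 2.99, and at Nlrc4 16 of 17 flanking windows lie below 0.

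Counted together, 3 of the 13 windows were past 2-fold in either direction, where 3.32% of all windows were. Of these, 2 of the 13 were past 2-fold towards Cas, both at Nlrp1b, where 0.925% of all 43762 windows with 10 or more interactions were past it. In the direction of 129 it was 1 of 13, the window of 59 interactions at Naip6, where 2.40% of all windows were past it. Nothing is read from these counts, since the contrast itself chose the genes. The median of the 13 ratios was -0.049, with 5 above 0 and 8 below, against a median of 0 over all windows. Ordered by gene, the ratios were -1.59 for Nlrp1b, -0.45 for Nlrc4, -0.23 for Naip5, -0.02 for both Naip2 and Naip1, 0.15 for Nlrp1a and 0.75 for Naip6. Of the neighbours in this order, only the counting intervals of Naip2 and Naip1 overlapped, which is a description and no test between genes. Some of these genes share windows, so their values are not separate. Of the 2925 interactions of Naip5, 2866 are in the window it shares with Naip2. Of the 170 of Naip6, 59 are in the window it shares with Naip5. By gene locus, Nlrp1b was the only member past 2-fold towards Cas and none was past it towards 129, against 0.655% and 1.41% of the 18479 protein-coding loci.

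**Figure D4:**
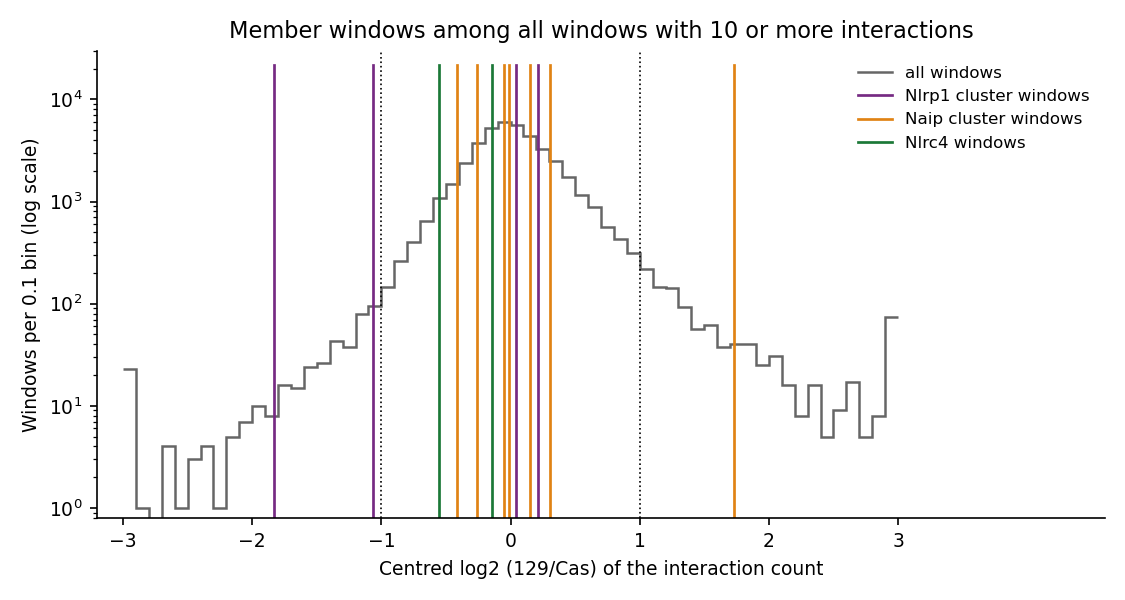
Centred log2 ratio of the 13 member windows (vertical lines, coloured by locus) over the distribution of all 43762 windows with 10 or more interactions (stepped line, windows per bin of 0.1, log scale; the outermost bins collect all values beyond them). Dotted lines mark 2-fold. Of the member windows, 10 lie between the dotted lines, 2 Nlrp1 windows lie to the left and 1 Naip window to the right.

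To see which loci had a similar combination of count and ratio, Nlrp1b was set against the 2759 named protein-coding loci with a summed count close to its own 3561 (2851 to 4451). None of them had a lower ratio, and 11 were past 2-fold towards Cas. Over all 18479 protein-coding loci, of any count, 31 had a lower ratio than Nlrp1b. As this ratio chose the gene set, the ranks are a description. The nearest was Zfp365, a zinc finger gene on chromosome 10, with 1517 interactions on 129 against 2920 on Cas (ratio -1.40). It was followed by Zfp868 on chromosome 8 with 1072 and 1988 (ratio -1.34) and Mcfd2 on chromosome 17 with 1229 and 2066 (ratio -1.20).

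The deposited distance of a window gives how far its contacts reached, though neither the labels nor the file say whether it is a mean or a median. In the 13 windows the distance was longer on 129 in 6, longer on Cas in 6 and equal in 1. It was at least 2-fold longer on 129 in 1 window, where 8.37% were among all 43555 windows in which both alleles had 10 or more interactions, and on Cas in 2, where 8.73% of all windows were. With 1 distance per allele and window, no error could be given.

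Among the 13 windows, the largest ratio of distances was at the 3′ end of Nlrp1b (71150001 to 71200000), where contacts reached 135 kb on 129 and 886 kb on Cas, 6.56-fold longer on Cas. In the start window of the same gene the distance was 58 kb on both alleles, with 691 interactions on 129 and 1796 on Cas. In the window of Nlrp1c-ps it was 191 kb on 129 and 64 kb on Cas. Distance and count therefore did not move together across these 3 windows, which all had more counts on Cas. At Nlrp1a the alleles were close, with 374.5 kb on 129 and 381 kb on Cas at the 3′ end and 141 and 163.5 kb at the start.

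The other window with an at least 2-fold longer distance on Cas was the middle of Naip2 (100150001 to 100200000), with 52 kb on 129 and 245 kb on Cas, 4.71-fold longer on Cas at 287 and 280 interactions. In the adjoining window with Smn1 and the 3′ end of Naip2 the order was the opposite, 142 kb on 129 and 70 kb on Cas. At the shared start window of Naip2 and Naip5 the distances were 201 and 200 kb, and at the start of Naip1 71 and 68 kb. The start of Naip6 had 137 kb on 129 and 149 kb on Cas from 70 and 41 interactions. At the start of Nlrc4 they were 116.5 and 114 kb, and at its 3′ end 54 kb on 129 and 31 kb on Cas. The start windows of Nlrp1b, Naip1, Naip2 with Naip5 and Nlrc4 thus had nearly equal distances on both alleles. Those of Nlrp1a (141 kb on 129 and 163.5 kb on Cas) and Naip6 were less equal.

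**Figure D5:**
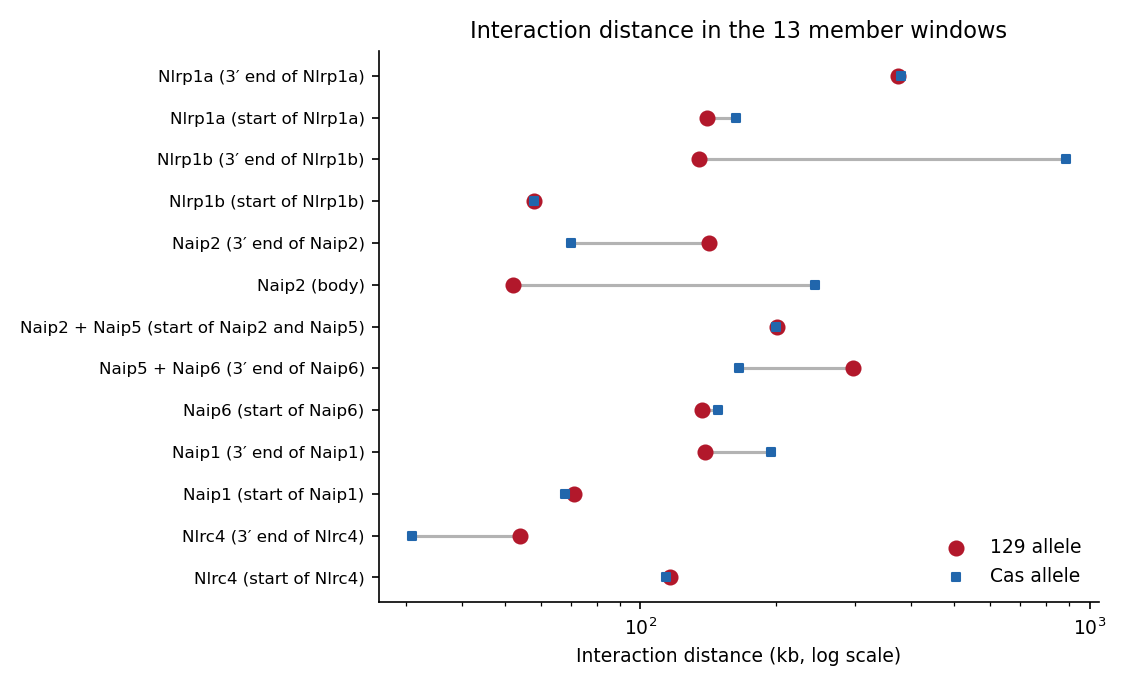
Interaction distance in kb, on a log scale, on the 129 allele (large circles) and the Cas allele (small squares) in each of the 13 member windows, joined by a grey line. Labels give the genes and whether the window holds an annotated start, a 3′ end or the body. The longest lines are those of the Nlrp1b 3′ end, 135 kb on 129 and 886 kb on Cas, and of the Naip2 body, 52 and 245 kb.

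The other genes of the pathway were read from 5 lists of 37 genes in all, of which 35 could be placed in a window. Their median centred ratio was -0.06, against -0.04 over all 18479 protein-coding loci. None of the 35 was past 2-fold towards Cas and 1 was past it towards 129, where 0.655% and 1.41% of all loci were, and 2.06% in either direction. Of the other sensors, 9 were placed, with ratios from -0.44 to 0.05. Among them were Nlrp3, a sensor of many kinds of cell stress, with 13217 interactions on 129 against 9327 on Cas (ratio 0.05), and Nlrp10 with 2762 and 2099 (ratio -0.06).

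The 7 adaptor, caspase and related genes had ratios from -0.29 to 0.18. Casp1, the caspase that inflammasomes activate, had 3039 interactions on 129 against 2479 on Cas (ratio -0.16), and Nek7, a kinase that NLRP3 needs, had 3829 and 2699 (ratio 0.05). The 7 regulators of NLRP1 lay between -0.25 and 0.25. Dpp8, which encodes a peptidase that restrains NLRP1, had 7075 and 4943 (ratio 0.06), and the ubiquitin ligase gene Ubr4 had 2603 and 1949 (ratio -0.04). The 7 genes of the output ran from -0.16 to 0.37. Gsdme, a pore-forming gasdermin, had 1716 and 1238 (ratio 0.02), and Il1rn, the antagonist of the interleukin-1 receptor, had 4728 and 3397 (ratio 0.02).

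The gene past 2-fold was Tlr5, which encodes the cell-surface receptor for flagellin, the ligand that NAIP5 and NAIP6 detect in the cytosol. Its window (chromosome 1, 182950001 to 183000000) had 1345 interactions on 129 against 339 on Cas, so that 129 held 79.9% (77.9 to 81.8%) of them, with a centred ratio of 1.53, and contacts reached 201 kb on 129 and 467 kb on Cas. The 3 windows before it had ratios of 0.74, 0.33 and 0.67. The next 4 windows of the table had 0 interactions on both alleles. In the same list, Tlr4, the receptor for lipopolysaccharide, had 3041 interactions on 129 against 2159 on Cas (ratio 0.04), and Irf8, a myeloid transcription factor, had 4279 and 3391 (ratio -0.12).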

How the data were processed

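Promoter Capture Hi-C was carried out on 2 samples of F121-6 ES cells. Fixation was in 2% formaldehyde with HindIII as the cutter and paired reads of 100 bp, per the labels' protocols. Bowtie2 and mm10 are named in the submitters' processing notes. No source used here gives how alleles were assigned, reads filtered and samples merged. The authors deposited whole-number interaction counts, not normalised, and a distance, taken to be in bp, per 50 kb window and allele. Both samples list the same columns, so each was taken as pooled. Reads of the Cas allele can be lost in mapping to a reference of another strain, which was not tested here, and centring adjusts only the median window.

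The log2 ratio of 129 over Cas, with 1 added to both counts, was centred on its median over all windows with 10 or more interactions, distances were compared at 10 or more per allele, and a locus is the sum of all windows its span overlaps. Window starts were raised by 1. Calls are past 2-fold, with no p-value. The ratio was tested on simulated data. Genes were named by a written rule: all members, flanking genes past 2-fold or adjoining, list genes past 2-fold with 20 or more interactions or the 2 nearest to 0, and the 3 loci most like Nlrp1b. Genes known by model or clone numbers were not named, and Ifi204, Txnip and Nlrp14 were not analysed here. The members and lists were chosen with earlier results of these data known. Sequences were aligned globally with Biopython 1.88 (match 2, mismatch -1, gap opening -3 and extension -1). Scripts ran in Python 3.11.15 with scipy 1.17.1 for intervals, pandas 2.3.3 and numpy 2.4.6 for tables, and matplotlib 3.10.9 for figures. Alternatives covered pseudocounts, centres, folds, count minimums, locus and flank definitions.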

Additional observations from a re-analysis of the deposited data

How the results depend on the processing

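The 2 windows past 2-fold towards Cas became 1 at a threshold of 3-fold, and were 2 under the other 7 settings tried. The 1 window past 2-fold towards 129 became 0 when 100 or more interactions were required, since it has 59, and was 1 under the other 7. The median ratio of the member windows, -0.049, was -0.087 with a centre taken per chromosome and -0.095 with the minimum of 100 interactions. Both stay close to 0. The Nlrp1b ratio ran from -1.83 to -1.45 over 5 alternatives. At Naip5 the median of its window ratios gave 0.74 in place of -0.23, because a window of 59 interactions then weighs as much as one of 2866. The median of the flanking windows moved with the flank's length and kept its sign. With 500 kb, 250 kb and 1 Mb it was -0.08, -0.12 and -0.05 at Nlrp1, 0.06, 0.22 and 0.03 at Naip, and -0.28, -0.47 and -0.11 at Nlrc4. The sign of the other 6 loci held under their 5 alternatives each. No replicate could be left out and no paired analysis was possible because both samples are pooled in every column and form 1 group.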

Other observations

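Of the other NLR family genes, outside the inflammasome lists, 13 of 14 were placed in a window. Their centred ratios ran from -0.49 to 0.66 with a median of -0.02. None of the 13 was past 2-fold in either direction, where 2.06% of all 18479 protein-coding loci were. Nlrp4e had 450 interactions on 129 and 325 on Cas (ratio 0.01), and Nlrp4c had 2203 and 1636 (ratio -0.02). Both belong to a group of NLR genes expressed mainly in oocytes and early embryos.

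The NAIP proteins also carry the BIR domain of the inhibitors of apoptosis. The 5 other BIR genes examined here, which are not a full list, all had ratios below 0, between -0.38 and -0.03, with none past 2-fold. Of all 18479 protein-coding loci, 57.7% were below 0, and 0.655% were past 2-fold towards Cas and 1.41% towards 129. Birc2 and Birc3, which encode ubiquitin ligases of tumour necrosis factor signalling, had 2722 interactions on 129 and 2026 on Cas (ratio -0.03) and 4029 and 3158 (ratio -0.10). The only window of Birc2 is also 1 of the 2 windows of Birc3, so their counts overlap. Birc6, at -0.38, lies beside Nlrc4 and within its flanking windows, so it is not separate from the values given there.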
